A study of Rattus norvegicus with 4 samples.

Results

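The 58 genes described here are the DNA repair genes of the rat expression array used in this study. They were taken by symbol from the platform's probe annotation (the RAD, XRCC, ERCC and Fanconi anaemia families, the mismatch repair genes, the breast cancer genes Brca1 and Brca2, the checkpoint kinases and their partners), out of the 14217 genes that the annotation names with a single symbol. The rule chose the genes by name alone, with no measured value. It matched 73 of the 31099 probe sets, and each gene was read at its probe set with the highest mean over the 4 arrays. After probe sets too dim to test were left out, 53 of the 58 genes remained.

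Ovaries came from female rat pups on postnatal day 4, when nearly all follicles are still primordial, and were kept as whole organs on floating filters in serum-free medium with insulin, transferrin, albumin and ascorbic acid for 10 days. The AMH group received 50 ng/mL anti-Müllerian hormone (AMH), a TGF-beta family hormone of growing follicles that restrains the recruitment of primordial ones. The control group had the same medium with no hormone added. Each group consisted of 2 pools, called independent in the labels, of about 10 ovaries each, and each pool was read on 1 one-colour Affymetrix array. The egg coat gene Zp3, an oocyte marker, had intensities of 2721.8 and 1977.8 on the AMH arrays and 2531.1 and 2133.5 on the control arrays. Not all oocyte markers were as bright in both groups. Bmp15, an oocyte growth factor, had 22.6 and 22.3 on the AMH arrays, against 147.5 and 115.2 on the control arrays, and the receptor gene Kit had 18.9 and 3.9 with AMH, against 75 and 45 in control, so that both lay under the intensity filter of 27.8 on the AMH arrays alone.

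Cells repair broken or altered DNA by separate routes. Homologous recombination copies an intact sister or homologous strand into a double-strand break, end joining ligates the ends directly, mismatch repair removes replication errors, and nucleotide and base excision repair cut out damaged stretches or single bases. The checkpoint kinases ATM and ATR sense the damage and act through CHEK2 and CHEK1. In the ovary the oocytes of primordial follicles rest in meiotic prophase after recombination has been completed, and in mice CHEK2 and CHEK1 take part in deciding whether an oocyte with unrepaired breaks survives.

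As a family, the DNA repair genes were called changed about as often as genes in general. Changes are differences of log2(intensity + 16), AMH less control, with the standard error of a limma fit over the whole table. At an adjusted p under 0.05, 5 of the 53 tested genes rose and 8 fell. That is 24.5% of them, against 23% of all 10622 tested genes (11.1% higher and 11.9% lower). The median log2 change was 0.07 for the 53 repair genes and 0.07 for all tested genes, and the medians of its absolute size were 0.37 and 0.36. The AMH arrays lay above both control arrays for 17 repair genes (32.1%, against 36% of all tested genes) and below both for 19 (35.8%, against 28.6%). Groups without overlap made up 67.9% of the repair genes, against 64.6% of all tested genes.

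The 13 genes behind these counts were 3 of 11 tested in homologous recombination, 3 of 6 in checkpoint signalling and 2 of 4 in end joining. There were 2 of 5 in mismatch repair, 1 of 6 in the Fanconi anaemia pathway and 2 of 2 helicases named after ERCC6. Nucleotide excision repair had 0 of 10, and base excision and single-strand break repair 0 of 7. The shares for homologous recombination (27.3%) and the Fanconi anaemia pathway (16.7%) were near the 23% of all tested genes, and the roles are small. The falls were those of Chek1, Pms2, Xrcc5, Brca1, Rad51ap1, Rad1, Xrcc6 and Ercc6l, and the rises those of Ercc6l2, Fancb, Msh3, Nbn and Rad17. A fall in whole-ovary RNA can come from fewer cells of a type or from less RNA per cell, and these cannot be told apart here. Of the 53 genes, 4 were at least 2-fold lower (7.55%, against 6.05% of all tested genes) and 0 at least 2-fold higher (against 2.01%). Brca1, one of the 4, is at the edge of that limit and dim on the AMH arrays. Another scaling of the arrays moved this split. Median centring gave 5 rises and 4 falls, and scaling to the hybridization controls gave 0 rises and 19 falls, with a median of -0.46 for all tested probe sets. Falls made up 59.6% of all called probe sets on the deposited scale, 47.9% with median centring and 98% with hybridization control scaling.

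**Figure D1:**
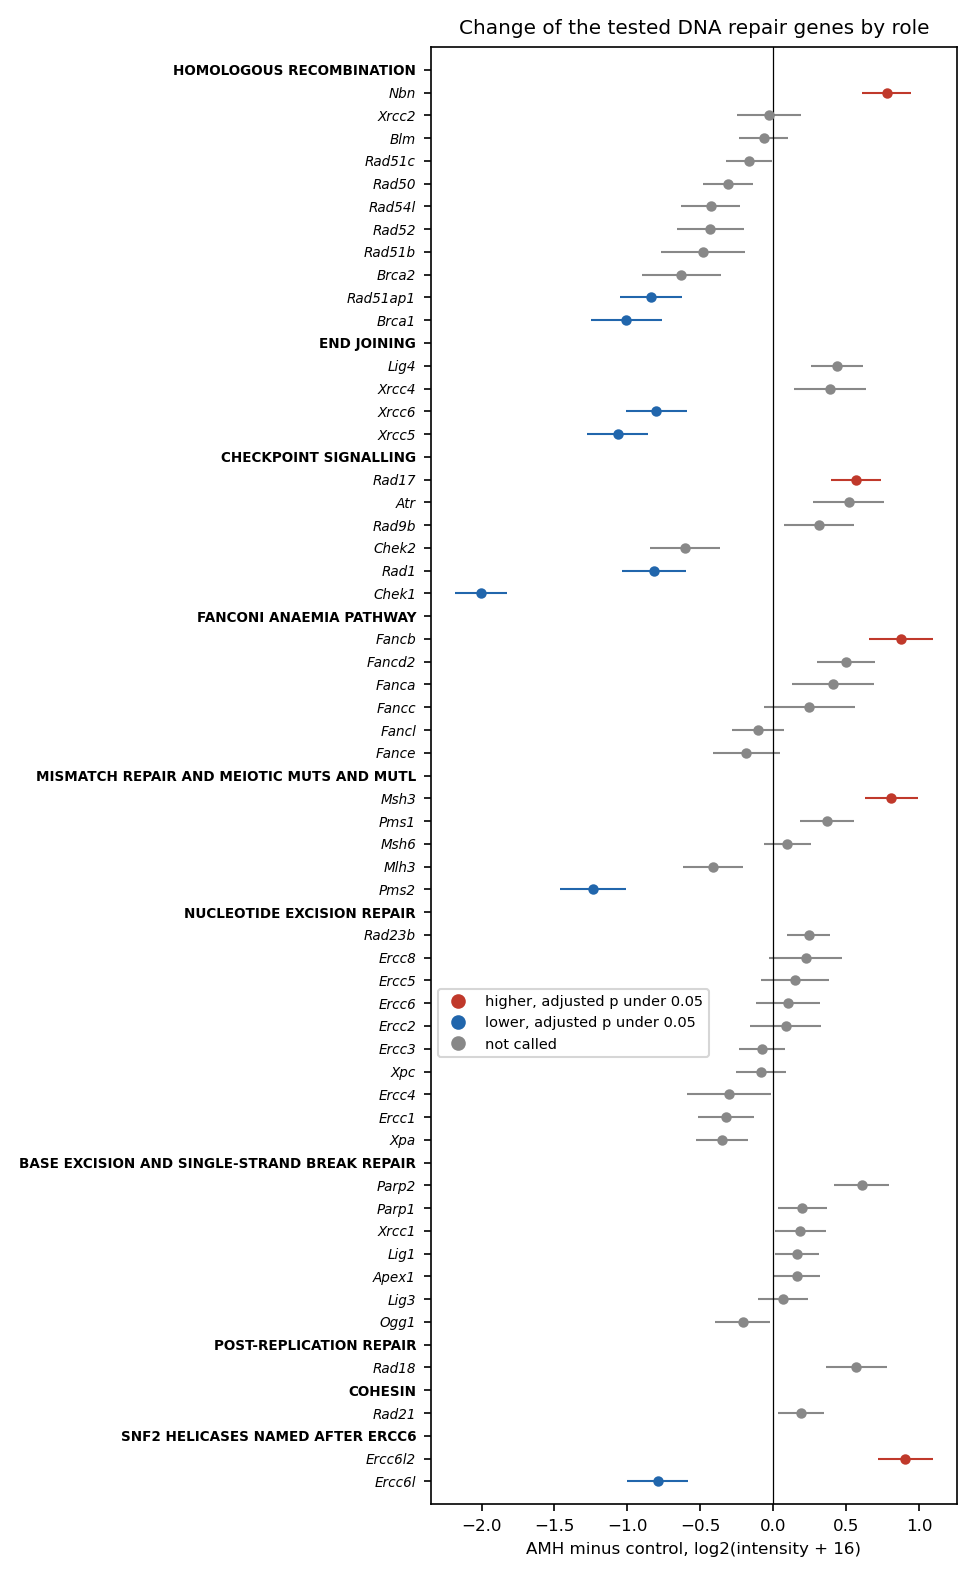
Log2 change (AMH minus control, x axis) of the 53 tested DNA repair genes, grouped by role, with standard errors as bars (2 arrays a group). Chek1 stands apart at -2.00, and the nucleotide excision repair genes all lie between -0.35 and 0.24.

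Properties of the arrays moved with the groups. The control probe sets for GAPDH read the transcript near both ends, and a high ratio of 3′ over 5′ signal marks shortened RNA or cDNA. This ratio was 6.56 and 6.37 on the AMH arrays, against 1.17 and 1.27 on the control arrays. For beta-actin it was 10.7 and 14.4 with AMH, against 3.17 and 4.60 in control. The hybridization controls had geometric means of 1318.4 and 1110.1 with AMH, against 771.8 and 870.7 in control. The chip identifiers of the groups carry different run strings, so run and group cannot be told apart. The part of the 3′/5′ difference in the changes of the repair genes was not tested. Of 11 tested oocyte markers 7 fell and 1 rose, with a median log2 change of -1.01. Their summed intensity was 8223.8 to 8892.3 on the AMH arrays, against 10723.2 to 11367.2 on the control arrays. Bmp15 and Kit are among the 7 falls and passed the filter on dim probe sets through the control arrays. With the lowest 60 percent of probe sets left out, 5 of 9 oocyte markers fell and 1 rose, with a median log2 change of -0.61. Of 13 tested granulosa markers 4 rose and 1 fell, and of 8 theca and stroma markers 1 rose and 2 fell. Of 6 smooth muscle markers 2 fell, and of 11 leukocyte markers 1 rose and 1 fell. The leukocyte marker that fell, C1qb, had 14.7 and 27.7 with AMH, under the filter's intensity, against 105.7 and 72.9 in control. Of all tested genes, 11.1% were called higher and 11.9% lower. The red blood cell markers summed to 88.2 to 114.6 with AMH, against 1240.3 to 1438.3 in control, with 1 of 2 tested called lower. No tested marker of the endothelium (6) was called. Of 6 surface epithelium markers 0 were called, but 5 were negative, with a median log2 change of -0.53, and 4 were called lower without AMH replicate 2, as with hybridization control scaling. The AMH arrays differed in leukocyte markers, which summed to 907.6 and 2527.9 with AMH and 1537.4 and 1357.1 in control. Without AMH replicate 1, 4 of these 11 rose and 1 fell, and without AMH replicate 2, 1 rose and 6 fell. Granulosa markers differed between the AMH arrays as well, with sums of 8715.2 and 6011.8 with AMH and 4659.2 and 4086.5 in control. Surface epithelium markers summed to 2019 and 3690.6 with AMH and 4434.8 and 3623.9 in control. The part of these cell types in the changes of the repair genes was not tested.

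The promoters of the 2 largest falls and the 2 largest rises are shown to set the genes at both ends of the family side by side, from RefSeq on GRCr8, as the 250 bases before and 50 after the start site, in the direction of the gene. Capitals mark words bound by E2F factors, which drive genes of DNA replication and S phase (TT, then 2 bases that are each C or G, then CGC, on either strand, with no other motif marked).
Chek1, chr8:44629794-44630093, strand -: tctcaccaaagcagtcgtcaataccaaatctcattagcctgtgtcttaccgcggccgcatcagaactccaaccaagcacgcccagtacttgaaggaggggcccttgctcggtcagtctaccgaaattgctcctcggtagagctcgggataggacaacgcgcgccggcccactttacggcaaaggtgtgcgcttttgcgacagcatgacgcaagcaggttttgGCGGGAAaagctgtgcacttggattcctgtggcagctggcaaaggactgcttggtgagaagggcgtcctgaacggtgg
Pms2, chr12:15814671-15814970, strand -: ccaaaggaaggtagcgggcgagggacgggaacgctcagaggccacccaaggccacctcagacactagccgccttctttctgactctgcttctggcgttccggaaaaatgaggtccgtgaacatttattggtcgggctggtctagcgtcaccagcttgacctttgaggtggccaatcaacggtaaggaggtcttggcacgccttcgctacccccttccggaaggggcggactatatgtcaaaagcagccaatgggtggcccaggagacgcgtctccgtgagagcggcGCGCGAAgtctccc
Ercc6l2, chr17:1316007-1316306, strand -: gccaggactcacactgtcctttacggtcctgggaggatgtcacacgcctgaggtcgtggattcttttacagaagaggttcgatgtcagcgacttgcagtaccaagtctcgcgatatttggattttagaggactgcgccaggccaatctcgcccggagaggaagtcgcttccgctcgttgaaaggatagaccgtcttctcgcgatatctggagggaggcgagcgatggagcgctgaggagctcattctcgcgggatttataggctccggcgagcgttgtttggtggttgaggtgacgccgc
Fancb, chrX:33049850-33050149, strand -: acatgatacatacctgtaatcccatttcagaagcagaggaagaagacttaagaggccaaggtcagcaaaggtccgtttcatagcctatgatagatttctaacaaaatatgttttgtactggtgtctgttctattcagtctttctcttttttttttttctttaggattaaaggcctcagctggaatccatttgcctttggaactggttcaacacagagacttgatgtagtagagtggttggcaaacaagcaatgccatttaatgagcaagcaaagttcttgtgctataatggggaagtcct
The word in the Chek1 promoter begins 28 bases before the start site, and the one in the Pms2 promoter at base 37 after it, both on the opposite strand. The windows of Ercc6l2 and Fancb hold none of these words. A promoter was at hand for 49 of the 58 repair genes, and 16 of them (32.7%) held an E2F word, against 18.2% of the promoters of tested genes and 10% of all promoters in the table. By call, the words were in 4 of 8 promoters of genes that fell (Chek1, Pms2, Brca1 and Rad51ap1), in 1 of 4 of those that rose (Rad17) and in 11 of 34 of those not called. A CCAAT box was found in 23 of the 49 (46.9%, against 38% of the promoters of tested genes) and the GC box word GGGCGG in 30 (61.2%, against 63.8%). These matches describe letters in a fixed window and say nothing of binding.

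Chek1, the kinase that ATR activates at stalled replication forks, had the largest change of the family. Its intensity was 70.1 and 65.2 on the AMH arrays, against 330.4 and 309.1 on the control arrays. The groups lay far apart and the arrays within each group close together. The log2 change was -2.00 ± 0.18, a 4.01-fold fall with an adjusted p of 0.000545, and it passed in all 16 alternatives (log2 -2.50 to -1.54). Chek2, the kinase downstream of ATM, gave 39.8 and 31.9 on the AMH arrays and 69.4 and 56.6 on the control arrays, a log2 change of -0.61 ± 0.24 that was not called (adjusted p = 0.108). Atr gave 80.9 and 99.1 with AMH and 70.2 and 47.1 in control, and its log2 change of 0.52 ± 0.24 was not called either.

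Rad1 and Rad17 act together, since Rad1 is a subunit of the ring-shaped 9-1-1 clamp that marks damaged sites and Rad17 belongs to the complex that loads it. Rad1 had 167.3 and 247.5 on the AMH arrays, against 413.3 and 334.2 on the control arrays, and fell by 0.82 ± 0.22 on the log2 scale (adjusted p = 0.0313). Rad17 had 236 and 246 with AMH, against 153.7 and 160.9 in control, and rose by 0.57 ± 0.17 on the log2 scale (adjusted p = 0.0472). For both genes the groups did not overlap, as selection by the test largely brings with it, and the signs were opposite. Rad9b, a paralogue of another clamp subunit, gave a log2 change of 0.32 ± 0.24 that was not called, and Hus1, a further clamp subunit outside the name rule, one of 0.10 ± 0.19 with overlapping arrays. The call of Rad17 was lost in 7 of 16 alternatives, among them the fit with the replicate number as a block (adjusted p = 0.0708), and that of Rad1 in 5 of 16, among them median centring (0.0747) and the fit without AMH replicate 1 (0.05).

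**Figure D2:**
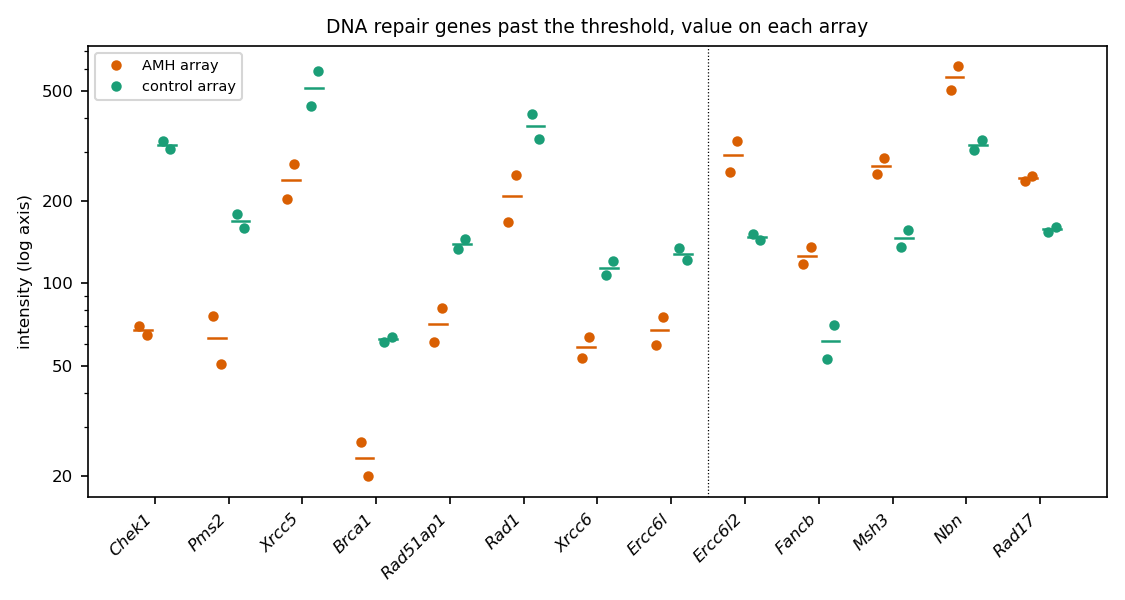
Intensity on each array (log axis) of the 13 DNA repair genes past the threshold, with falls left of the dotted line and rises right of it. Points are arrays (AMH left, control right) and short lines are means of 2 arrays. In none of the 13 do the groups overlap, which their selection by the test on these same arrays largely brings with it. Of all tested genes, 64.6% have groups without overlap. For Chek1 the AMH arrays are at 70.1 and 65.2, against 330.4 and 309.1 in control.

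Homologous recombination genes lay mostly below their control values. Of 11 tested genes 10 had a negative log2 change, with a median of -0.43, and in 7 of them both AMH arrays were below both control arrays. Of all tested genes, 44.5% had a negative change and 28.6% had both AMH arrays below. By the test, 2 fell (18.2%, against 11.9% of all tested genes) and 1 rose (9.1%, against 11.1%). Brca1, 1 of the 2 falls, passed the filter on dim probe sets through the control arrays, so these counts rest in part on dim values. With median centring 8 of the 11 were negative, with quantile normalization 9 and with hybridization control scaling 10.

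Brca1, which promotes the resection of breaks, had 26.6 and 19.9 on the AMH arrays, against 61.2 and 64 on the control arrays. The log2 change was -1.01 ± 0.25 (adjusted p = 0.0236). The gene passed the filter on dim probe sets through the control arrays, since its AMH values lie under the filter's intensity of 27.8, so its inclusion among the falls rests on dim values. Its log2 change was -1.40 with a constant of 1 and -0.54 with one of 64. With no filter on dim probe sets the call of Brca1 was lost. Rad51ap1, a DNA-binding protein of homologous recombination, had 61.2 and 81.5 with AMH, against 133 and 145.3 in control, and fell by 0.84 ± 0.21 on the log2 scale (adjusted p = 0.0265). The call of Rad51ap1 was lost with median centring and with no filter on dim probe sets. Brca2, which acts in homologous recombination and protects stalled forks, had 141.6 and 121.1 with AMH and 155.1 and 287 in control. The AMH arrays were the lower ones, but the control arrays differed widely, and the log2 change of -0.63 ± 0.27 was not called (adjusted p = 0.133). It passed without control replicate 1 (-1.04, adjusted p = 0.043).

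The other recombination genes were not called. Rad54l, a DNA motor protein, gave a log2 change of -0.43 ± 0.20, and Rad52, an annealing protein, one of -0.43 ± 0.23. Among genes that act in strand exchange, Rad51b gave -0.48 ± 0.29, Rad51c -0.17 ± 0.16 and Xrcc2 -0.03 ± 0.22 on the log2 scale. The helicase gene Blm gave -0.07 ± 0.17.

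The MRN complex, which binds broken ends and activates ATM, is built from the products of Mre11, Rad50 and Nbn. Among its genes, only Nbn was called at the brightest probe set. Nbn rose, with 505.3 and 617.5 on the AMH arrays, against 304.8 and 333.6 on the control arrays (log2 change 0.78 ± 0.17, 1.72-fold, adjusted p = 0.015). With hybridization control scaling the call of Nbn was lost. Rad50 at its brightest probe set had 245.5 and 217.5 with AMH and 277.7 and 304.1 in control, a log2 change of -0.31 ± 0.17 that was not called (adjusted p = 0.222). A dimmer probe set of Rad50 fell further, with 111.1 and 106.2 on the AMH arrays, against 299.6 and 300 on the control arrays (log2 change -1.34 ± 0.17, adjusted p = 0.002), and the mean over the tested probe sets passed (-0.83, adjusted p = 0.0156). Mre11, the nuclease of the complex, was below the filter, with 2.9 and 3.6 with AMH and 25.7 and 18.4 in control. It was not tested, and at this brightness its values are given without a fold change.

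**Figure D3:**
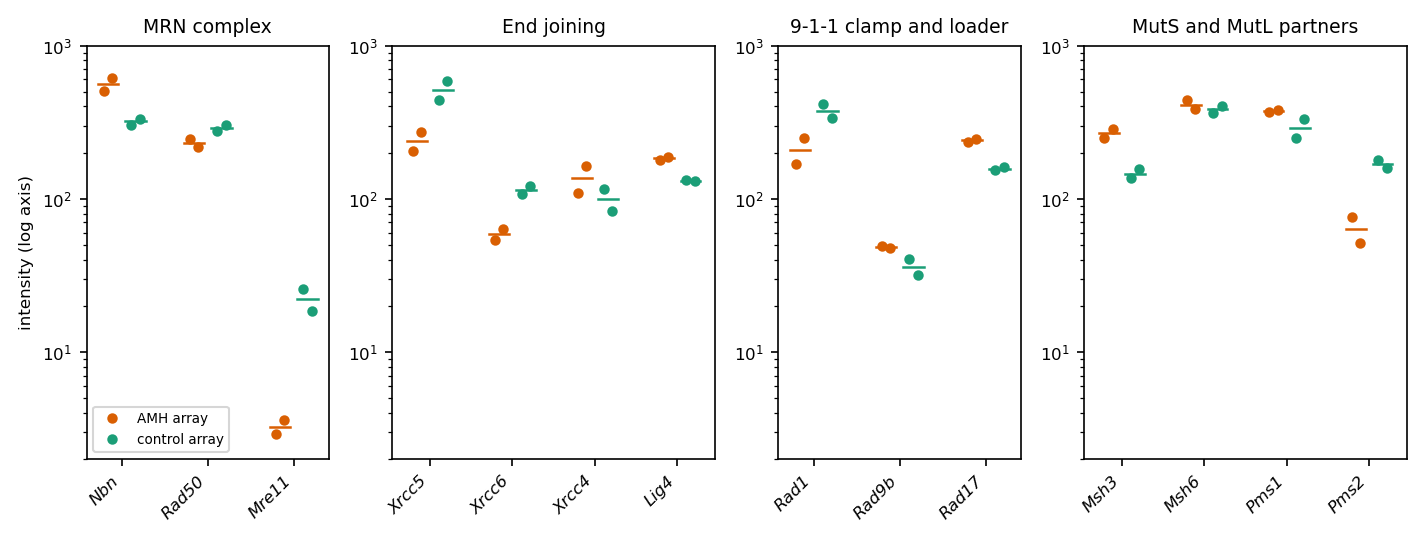
Intensity on each array (log axis) for genes whose products work together, with AMH arrays left of control arrays and lines at the means of 2 arrays. Nbn, Rad17 and Msh3 are higher with AMH while Rad1, Xrcc5, Xrcc6 and Pms2 are lower, and Mre11 lies below the filter on dim probe sets.

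Of the 4 tested end joining genes, both Ku subunits fell and the ligase with its partner did not. That is 50% of only 4 genes, against 11.9% of all tested genes called lower. Xrcc5 encodes Ku80 and Xrcc6 encodes Ku70, which form the ring that slides onto broken ends. Xrcc5 had 203.6 and 271.9 on the AMH arrays, against 441.5 and 590.1 on the control arrays, and fell by 1.07 ± 0.21 on the log2 scale (2.09-fold, adjusted p = 0.0101). Xrcc6 had 53.6 and 63.7 with AMH, against 107.6 and 120.6 in control, and fell by 0.80 ± 0.21 on the log2 scale (adjusted p = 0.0298). For both subunits the groups were well apart, which selection by the test on these same arrays largely brings with it.

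Lig4, the ligase that seals the ends, had 179.4 and 187.5 with AMH and 132.6 and 129.5 in control, and its log2 change of 0.44 ± 0.18 was not called (adjusted p = 0.113). The AMH arrays were above the control arrays here. Xrcc4, its scaffold, gave 0.39 ± 0.25 on the log2 scale with overlapping arrays. With hybridization control scaling the log2 changes of Lig4 and Xrcc4 turned to -0.07 and -0.10, while Xrcc5 and Xrcc6 still passed as lower (-1.60 and -1.26). That scaling moved the median of all tested probe sets to -0.46. With median centring and with no filter on dim probe sets Xrcc6 lost its call, while Xrcc5 kept it.

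Mismatch repair genes went both ways, with 1 higher and 1 lower of 5 tested. That is 20% each, against 11.1% and 11.9% of all tested genes. Pms2, a MutL gene whose product nicks the strand to be repaired, had 75.9 and 51 on the AMH arrays, against 179.5 and 158.9 on the control arrays. It fell by 1.24 ± 0.22 on the log2 scale (2.36-fold, adjusted p = 0.00804), the second largest fall of the family, and passed in all 16 alternatives (log2 -1.72 to -0.88). Msh3, a MutS gene whose product binds larger insertion and deletion loops, had 250.1 and 286 with AMH, against 136 and 155.9 in control, and rose by 0.81 ± 0.18 on the log2 scale (1.75-fold, adjusted p = 0.0167). Neither gene had overlapping groups, which selection by the test on these same arrays largely brings with it.

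The other tested MutS and MutL genes were not called. Msh6, whose product binds single mismatches, had 437.9 and 385.7 with AMH and 363.6 and 404.6 in control (log2 change 0.10 ± 0.16). Pms1, another MutL gene, gave a log2 change of 0.37 ± 0.18 and Mlh3, a MutL gene needed for meiotic crossovers, one of -0.41 ± 0.21. Msh5, which acts in meiotic recombination, lay below the filter at 5.5 and 29.5 with AMH and 12.8 and 34.4 in control.

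In the Fanconi anaemia pathway, which unhooks DNA strands that are crosslinked to each other, 1 of 6 tested genes was called. That is 16.7%, against 23% of all tested genes. Fancb, a subunit of the core complex, had 117.3 and 135.3 on the AMH arrays, against 53.2 and 70.7 on the control arrays, and rose by 0.87 ± 0.22 on the log2 scale (1.83-fold, adjusted p = 0.0254). Fancd2, the protein that the core complex tags with ubiquitin, had 166.2 and 175.1 with AMH and 130.7 and 102.9 in control. Both AMH arrays were higher, but the log2 change of 0.50 ± 0.20 was not called (adjusted p = 0.104). Fancl, the ubiquitin ligase of the pathway, gave a log2 change of -0.11 ± 0.18, and Fance, which gave -0.19 ± 0.23, was the lowest of the 6. Fanca, dim in control, passed the filter on dim probe sets through the AMH arrays, and its log2 change of 0.41 ± 0.28 was not called.

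Excision repair genes were not called in either of the 2 routes, with 0 of 10 and 0 of 7, against 23% of all tested genes. All 10 tested nucleotide excision repair genes lay between -0.35 ± 0.18 (Xpa, a damage verification factor) and 0.24 ± 0.15 (Rad23b, the partner of XPC) on the log2 scale. Their median absolute log2 change was 0.19, against 0.36 for all tested genes. Xpc, the damage sensor, had 219.8 and 204.7 with AMH and 240.1 and 212.7 in control, and the helicase gene Ercc3 had 450.9 and 505.8 with AMH and 532.8 and 478.3 in control. The arrays of the groups overlapped for both genes. The log2 changes were -0.33 ± 0.19 for Ercc1, a subunit of the nuclease that cuts on the 5′ side, and 0.08 ± 0.24 for the helicase gene Ercc2. With hybridization control scaling Xpa (-0.87, adjusted p = 0.0165) and Ercc1 (-0.83, adjusted p = 0.017) passed as lower.

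Of the 7 tested genes of base excision and single-strand break repair, 6 had a positive log2 change on the deposited scale. So did 5898 of all 10622 tested genes. Lig1, 1 of the 6, was called lower at its dimmer probe set and was at -0.33 as the mean over its probe sets. Parp2, which senses strand breaks, came nearest to the threshold, with 248.7 and 327.6 on the AMH arrays, against 178 and 186.4 on the control arrays (log2 change 0.61 ± 0.19, adjusted p = 0.0538). Parp1, its more abundant relative, had 1525.6 and 1176.1 with AMH and 1220 and 1110.9 in control (log2 change 0.20 ± 0.17), with overlapping arrays. Apex1, the endonuclease that cuts at sites without a base, gave a log2 change of 0.16 ± 0.16, the scaffold gene Xrcc1 one of 0.19 ± 0.18, and Ogg1, which removes oxidized guanine, one of -0.21 ± 0.19. With hybridization control scaling the values of Parp1, Apex1, Xrcc1 and the ligase genes Lig1 and Lig3 were negative and not called, and Ogg1 passed as lower (-0.70, adjusted p = 0.0428).

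Rad18, a ubiquitin ligase that lets replication pass damaged bases, had 172 and 218.9 with AMH and 109.7 and 143.5 in control, and its log2 change of 0.57 ± 0.21 was not called (adjusted p = 0.0887). Rad21, a subunit of the cohesin ring, had 1179.3 and 1111.9 with AMH and 1116.4 and 897.1 in control (log2 change 0.19 ± 0.16), with overlapping arrays.

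A pair of SNF2 helicase genes that carry the ERCC6 name moved in opposite directions. Ercc6l, whose product resolves DNA threads between separating chromosomes in mitosis, had 59.9 and 75.3 on the AMH arrays, against 134.7 and 121.6 on the control arrays, and fell by 0.79 ± 0.21 on the log2 scale (adjusted p = 0.031). The call of Ercc6l was lost with median centring and with no filter on dim probe sets. Ercc6l2 had 254.1 and 329.8 with AMH, against 150.7 and 143.6 in control, at its brightest probe set and rose by 0.91 ± 0.19 on the log2 scale (1.87-fold, adjusted p = 0.0133). A dimmer probe set of Ercc6l2 lay the other way, with 23.1 and 22 with AMH and 50.4 and 37.9 in control (log2 change -0.63 ± 0.26, adjusted p = 0.116). Its AMH values lie under the filter's intensity of 27.8, so this probe set passed the filter through the control arrays, and its sign rests on dim values. The mean over both probe sets was 0.14 and was not called (adjusted p = 0.659), so the rise rests on 1 probe set.

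Probe sets of one gene could disagree elsewhere too. Among the 6 repair genes tested at more than 1 probe set, the sign differed in 3 and the call in 3. These counts include Ercc6l2, whose dimmer probe set passed the filter through the control arrays. Lig1, the replicative DNA ligase, had 475.3 and 500 on the AMH arrays and 434.4 and 432.6 on the control arrays at its brightest probe set (log2 change 0.16 ± 0.15, not called). Its dimmer probe set fell, with 80 and 61.3 with AMH, against 125.6 and 146.2 in control (log2 change -0.81 ± 0.21, adjusted p = 0.0301). For Lig3, Lig4 and Fancc the probe sets differed by at most 0.14 on the log2 scale.

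**Figure D4:**
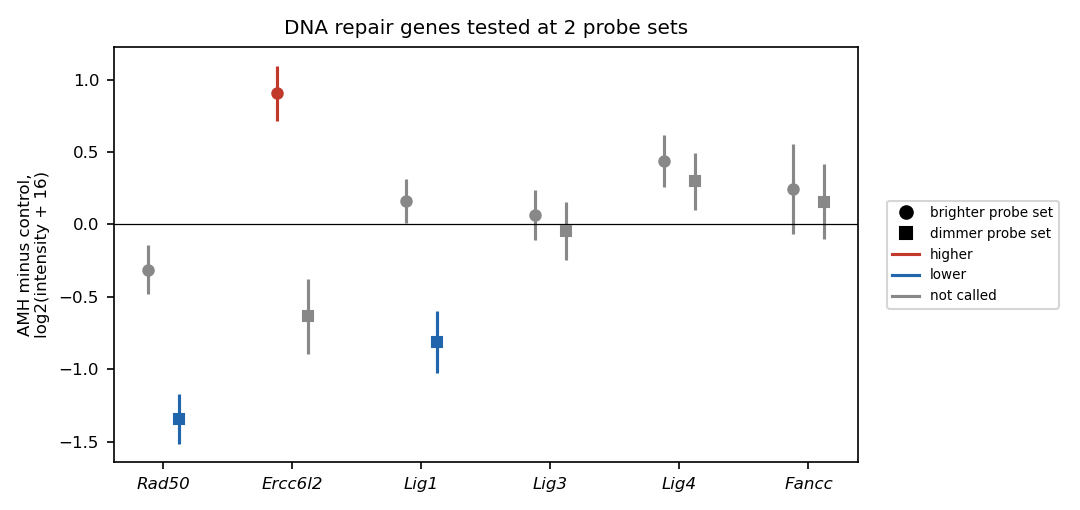
Log2 change (AMH minus control, y axis) of the 6 DNA repair genes tested at 2 probe sets, with the brighter one as a circle, the dimmer one as a square and bars for the standard error (n = 2 arrays per group). Rad50, Ercc6l2 and Lig1 differ between their probe sets, with -0.31 and -1.34 for Rad50. The dimmer probe set of Ercc6l2 lies under the filter's intensity of 27.8 on the AMH arrays.

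The remaining genes below the filter were Xrcc3 (41.4 and 20.5 with AMH, 27.4 and 13.1 in control), Fancd2os, named for its place opposite Fancd2 (4.8 and 31.5 with AMH, 35.8 and 33.7 in control), and Rad54l2 (18.3 and 12.5 with AMH, 26.5 and 19.3 in control). The products of the last 2 are not established repair factors.

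Leaving out a control array lowered the share called, among the repair genes and over all probe sets. Without control replicate 1 there were 0 rises and 4 falls among the repair genes, and without control replicate 2 there were 0 rises and 3 falls. The share called was 7.55% and 5.66% of the repair genes in these fits and 7.41% and 10.1% of all probe sets, against 24.5% and 21.5% with all arrays. Each of the 5 rises lost its call in both fits, at adjusted p between 0.052 (Fancb) and 0.288 (Rad17). Among the falls, Brca1, Rad51ap1, Xrcc6 and Ercc6l were lost in both (0.119 to 0.217), Xrcc5 without control replicate 2 (0.0672) and Rad1 without control replicate 1 (0.202). In such a fit the spread comes from the AMH arrays alone. Without AMH replicate 1 there were 7 rises and 6 falls, with Ercc6l (0.0513) and Rad1 (0.05) lost and Parp2 (0.79, adjusted p = 0.0116) and Rad18 (0.73, adjusted p = 0.0361) gained, and without AMH replicate 2 there were 4 rises and 8 falls, with Rad17 lost (0.061).

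Repair and damage signalling genes outside the name rule gave a like picture. Of 66 tested genes of such a list, 6 rose and 12 fell, with a median log2 change of -0.04. That is 9.1% higher and 18.2% lower, against 11.1% and 11.9% of all tested genes. The largest moderated statistics among rises were those of Rbbp8, a resection factor that binds BRCA1, with 664.2 and 694 on the AMH arrays, against 347.9 and 378.5 on the control arrays (log2 change 0.88 ± 0.15, adjusted p = 0.00657), and of Usp1, which takes ubiquitin off FANCD2 (0.75 ± 0.14, adjusted p = 0.00964). Among falls they were those of Ube2n, an enzyme that builds the ubiquitin chains of damage signalling, with 321.4 and 278.7 with AMH, against 1569.1 and 984.1 in control (log2 change -2.00 ± 0.22, adjusted p = 0.00117), and of Alkbh2, which reverses alkylation of bases (-1.82 ± 0.20, adjusted p = 0.00115). Both falls passed in all 16 alternatives, with Ube2n at -1.31 as the mean over its probe sets. Usp1 lost its call without either control array (0.0882 and 0.0738) and Rbbp8 without control replicate 1 (0.0679), and the mean over the probe sets of Usp1 was -0.15 (adjusted p = 0.52). With hybridization control scaling both rises were lost, at 0.33 for Rbbp8 (adjusted p = 0.285) and 0.21 for Usp1 (0.511). Without control replicate 1 this list gave 0 rises and 9 falls, and without control replicate 2 it gave 1 and 7.

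Targets and regulators of p53 gave 1 rise and 3 falls among 21 tested genes. The share called was 19%, against 23% of all tested genes. Gadd45a, a damage-induced growth arrest gene, had 54.9 and 115.8 on the AMH arrays, against 289.2 and 354.1 on the control arrays, and fell by 1.80 ± 0.29 on the log2 scale (adjusted p = 0.00508). Mdm4, an inhibitor of p53, fell by 0.94 ± 0.19 on the log2 scale (adjusted p = 0.012), a call lost without control replicate 1 (0.102) and in the mean over its probe sets (-0.14, adjusted p = 0.666). With hybridization control scaling it passed at -1.45. Ppm1d, a phosphatase that ends damage signalling, rose by 0.54 ± 0.16 on the log2 scale (adjusted p = 0.0459) and was lost without control replicate 1 (0.177), control replicate 2 (0.313) or AMH replicate 1 (0.0661). Its call was also lost with no filter (0.0666), quantile normalization (0.0645), no intensity trend (0.0903), the replicate number as a block (0.0638) and means over probe sets (0.0538), and with hybridization control scaling its log2 change was -0.00059. Ccng1, a p53 target, gave 0.59 ± 0.23 and was not called, but passed without AMH replicate 1 (0.95, adjusted p = 0.00286), and it was at 0.055 with hybridization control scaling.

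Many repair genes are transcribed in S phase, so proliferation genes were read beside them. Of 31 tested, 4 rose and 4 fell, with a median log2 change of 0.10 on the deposited scale and -0.40 with hybridization control scaling. The share called was 25.8%, against 23% of all tested genes. Birc5, an inhibitor of apoptosis that acts in mitosis, had 62.7 and 54 with AMH, against 252.3 and 236.8 in control (log2 change -1.81 ± 0.19, adjusted p = 0.000914), and the cyclin gene Ccnb1 fell by 1.08 ± 0.14 on the log2 scale (adjusted p = 0.00204), or by 1.63 with hybridization control scaling. The mitotic kinase genes Bub1 (0.75 ± 0.16, adjusted p = 0.0142) and Cdk1 (0.70 ± 0.15, adjusted p = 0.0144) rose on the log2 scale, and both were lost without either control array (0.0749 to 0.127) and with hybridization control scaling, at 0.21 (adjusted p = 0.527) and 0.15 (0.662). Without control replicate 1 the list gave 0 rises and 2 falls, as it did without control replicate 2.

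**Figure D5:**
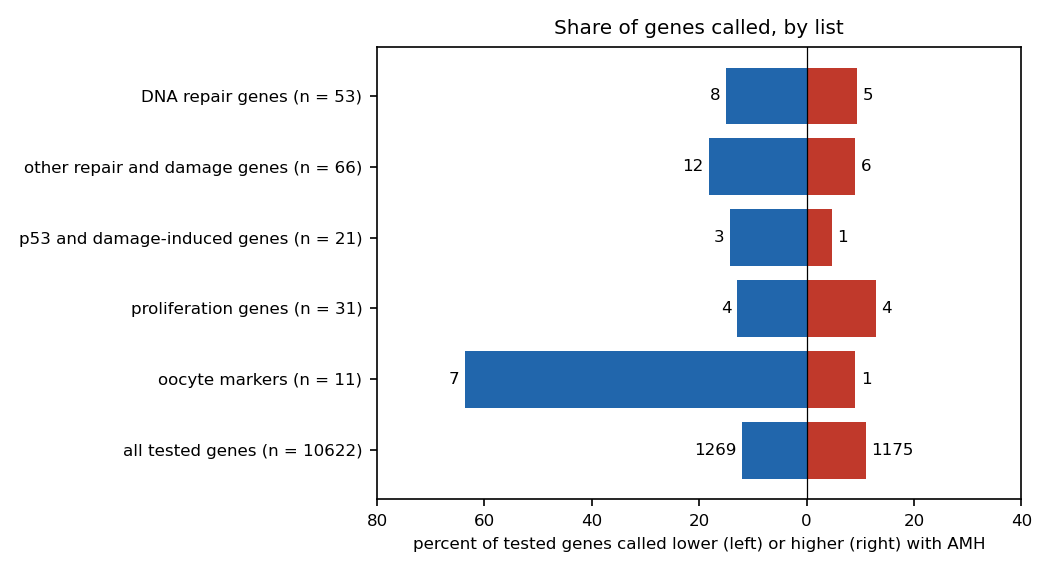
Percent of tested genes called lower (left, blue) or higher (right, red) with AMH in each list, with the number called beside each bar. The DNA repair genes, with 8 lower and 5 higher of 53, have shares near those of all tested genes, while 7 of 11 oocyte markers are lower. Among these 7, Bmp15 and Kit passed the filter on dim probe sets through the control arrays, as did Brca1 among the 8.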

How the data were processed

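RNA from 4 pools of cultured rat ovaries was hybridised as biotin-labelled material to 1-colour Affymetrix arrays by standard procedures, per the labels' protocols. The authors deposited 1 intensity per probe set on a linear scale; how the probes were summarised is not given in those sources. A mean trimmed by 2 percent at each end is 125.03 on every array, so these deposited intensities had been scaled to one target. The table holds no detection calls.

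Groups and replicate numbers came from the titles. Intensities were log2-transformed after 16 was added. All 57 control probe sets and, of the rest, the dimmest 40 percent (intensity under about 27.8) were dropped, which left 18625. limma 3.58.1 in R 4.3.3 then fitted AMH against control (lmFit; eBayes with trend), and two-sided p-values were adjusted by Benjamini-Hochberg over these 18625, with 0.05 as the threshold. Residual degrees of freedom were 2 and prior ones 6.33. The number of arrays limits precision.

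Symbols came from the platform annotation: 20832 probe sets have 1 symbol, 436 several and 9831 none listed. All 58 repair genes matched the RefSeq table (GRCr8) by Entrez identifier. Some repair genes are not reported here. Named are all repair genes past the threshold, the highest and lowest of each role, a set of core genes, and the 2 highest and 2 lowest of each of 3 further lists. The remaining repair genes were named after their values were seen, to complete their groups. The members and lists were chosen with earlier results of these data known. Alternatives are in the closing section.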

Additional observations from a re-analysis of the deposited data

How the results depend on the processing

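Over 16 alternatives, the 5 rises and 8 falls among the repair genes stayed within 1.5 times of these counts except as follows. No filter on dim probe sets gave 3 rises and 3 falls (1010 probe sets higher, against 1614), median centring gave 4 falls, and hybridization control scaling gave 0 rises and 19 falls (122 probe sets higher and 5942 lower, against 1614 and 2385). With no intensity trend in the prior 989 probe sets were higher, and 1035 genes were as means over their probe sets. Leaving out 1 array gave 0 to 7 rises and 3 to 8 falls among the repair genes, and 334 to 2245 higher and 1047 to 2886 lower probe sets. The cause was not tested, and each fit that leaves out 1 array has 3 arrays, whichever group it is taken from. The fit with the replicate number as a block gave 4 rises and 8 falls (1350 and 2216 probe sets); same-numbered arrays did not deviate together (r = -0.00082 over 18625 probe sets), so the numbers name arrays and were not taken to pair them. Of the 13 called repair genes, none changed sign. Uncalled genes that took another sign were, under hybridization control scaling, 18: Apex1 (-0.38), Ercc2 (-0.31), Ercc5 (-0.33), Ercc6 (-0.37), Ercc8 (-0.27), Fancc (-0.26), Fancd2 (-0.0054), Lig1 (-0.38), Lig3 (-0.46), Lig4 (-0.0688), Msh6 (-0.44), Parp1 (-0.35), Pms1 (-0.16), Rad21 (-0.36), Rad23b (-0.31), Rad9b (-0.092), Xrcc1 (-0.34) and Xrcc4 (-0.10). Under median centring they were Blm (0.030), Ercc3 (0.0192), Xpc (0.0115) and Xrcc2 (0.069), and under quantile normalization Xrcc2 (0.065). Leaving out 1 array gave ranges of -0.158 to 0.00266 for Ercc3, -0.0233 to 0.157 for Lig3 and -0.0175 to 0.186 for Ercc2, and turned Blm, Ercc4, Ercc5, Ercc6, Ercc8, Fancc and Xrcc2 in at least 1 fit. Lig1 was at -0.33 as the mean over its probe sets. The 3′/5′ difference and the run had no alternative, and dim probe sets have no detection call.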

Other observations

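Across the 53 tested repair genes, Spearman's rho of the log2 change with the log10 of the gene's span in the RefSeq table was 0.27, against 0.13 across 10584 tested genes. Both are descriptions across genes that share the same 4 arrays. After the trend with span was removed from each array, 6 repair genes rose and 8 fell, and all 13 of the calls above remained.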
